A study of Coturnix japonica with 54 samples.

Results

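Male Japanese quail (Coturnix japonica) held at 8 h of light a day, the shortest days of a simulated year, were compared with quail held at 10 h of light, the step before. The members are all libraries labelled 8L or 10La, 6 birds each, 12 of the 54 birds of the series. All 54 birds started on 16 h of light and 8 h of darkness, and 9 groups of 6 were taken along a schedule that shortened the days to 8 h of light and then lengthened them to 16 h, with 2 weeks at each step. The 10La birds had 10 h of light and 14 h of darkness on the declining arm (the letter a was read as that arm and v as the rising arm), and the 8L birds had 8 h of light and 16 h of darkness. Other groups used here are 14La (14 h of light and 10 h of darkness) and 12La (12 h of each) on the declining arm, and 10Lv on the rising arm. The other groups, 16La on the declining arm and 12Lv, 14Lv and 16Lv on the rising arm, are named in the same way; they entered the fits, and their reads are given for DIO3. Each bird was entered as 1 sample, and no animal was sampled at both steps. The labels give no litter, batch or date. Groups were taken at successive steps, so day length cannot be told apart from time in the study. P-values of the fits rest on the spread between birds of the same group, pooled over all 9 groups. Those of the permutation tests rest on the 12 birds alone.

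Birds read day length deep in the brain. In long days thyrotropin from the pars tuberalis of the pituitary acts on the mediobasal hypothalamus, where the deiodinase DIO2 then makes active thyroid hormone and the deiodinase DIO3, which breaks it down, is kept low. Gonadotropin-releasing hormone then drives the pituitary gonadotropins, whose transcripts drop again when days shorten. Quail are known for a sharp threshold in this response, and days of 10 h and of 8 h are both short days for them.

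RNA from each bird was copied to cDNA and read on Oxford Nanopore flow cells, and 2 tables were analysed separately. The sources used here do not say whether both tables rest on the same library of a bird. The first, the CPM table, held normalised read counts (CPM), from which 298016 to 1000961 reads per library were recovered in 10La and 376256 to 1285247 in 8L. The second, the count table, held 25850 to 123259 counts per library in 10La and 31884 to 48581 in 8L, and ACOT9, an acyl-CoA thioesterase, took 19.2% to 46.5% of them in 10La and 20.4% to 44.4% in 8L. Some libraries stood apart. Replicate 3 of each group was the shallowest of its group in the CPM table, as in 7 of all 9 groups, and 10La replicate 2 and 8L replicate 5 had 1083 and 1545 genes with counts in the count table, against at least 3305 in the other 10 libraries.

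All samples are labelled mediobasal hypothalamus. The CPM table held the markers of such brain tissue: 11 of 11 neuronal markers were detected, with a summed level of 27618 to 42235 CPM in 10La and 29024 to 41330 in 8L. Of the pituitary hormone genes FSHB had 0 reads, TSHB 1, GH 1 and PRL 8 over the 12 birds, whereas CGA was read in every bird, at 59.2 to 236 CPM. Parts of the count table went against the label. NPY, VIP, CARTPT and GHRH, 4 hypothalamic neuropeptide genes, had 0 counts in all 12 birds, while POMC, PRL and CGA, which encode hormones of the pituitary, had counts in all 12. Other hypothalamic genes did have counts, among them AGRP (1 in 8L), PDYN (1 in 10La) and DIO2 (10 in 10La and 14 in 8L). Of the 11 neuronal markers 10 were detected in the count table, all but SLC32A1. Summed pituitary markers there spanned 4247 to 46137 CPM in 10La and 7249 to 59752 in 8L, and summed neuronal markers 0 to 3598 and 62.5 to 6273 CPM. The pituitary marker sums were lowest in 10La replicate 2 and 8L replicate 5. In the count table the median sum in 10La was 39726 CPM for pituitary markers and 171 for oligodendrocyte markers. In 8L these medians were 34060 and 69.0 CPM. In the CPM table they were 4976 and 8372 CPM in 10La, and 4845 and 6509 in 8L. OLIG2, SOX10, AQP4 and NES had no counts in the count table. Whether both tables measured the same tissue was not tested. The tables were scaled separately, so levels are compared only within a table. In bulk samples fewer cells of a type and less RNA per cell cannot be told apart.

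No gene passed the test between 10 h and 8 h of light. In the CPM table limma called 0 of 8268 genes higher and 0 lower (0.0% each) at a Benjamini-Hochberg adjusted p under 0.05 (smallest adjusted p 0.764). At an unadjusted p under 0.05 there were 350 genes (4.23%), of which 209 were higher (2.53%) and 141 lower (1.71%) in 8L. A share of 0.05 of the genes is 413.4. In the count table edgeR's quasi-likelihood test called 0 of 826 genes (0.0%), and 24 (2.91%) had an unadjusted p under 0.05, 9 higher (1.09%) and 15 lower (1.82%). On the reads recovered from the CPM table limma-voom called 0, edgeR 0 and DESeq2 2, KIFC2 and BG-like antigen 1. Of the 44 reads of BG-like antigen 1 in 8L, 43 were in replicate 6, and 10La had 0. DESeq2 and limma-voom called 0 in the count table, and edgeR with no filter on low counts called 2 lower, MTSS1 and KCNMA1. With no filter the CPM table gave 1 higher and 1 lower, neither with a symbol. An exact two-sided permutation test of every gene with a read, whose smallest possible p with 6 against 6 birds is 0.00216, called 0 of 17693 genes in the CPM table and 0 of 13287 in the count table. It gave p under 0.05 for 3.02% and 0.76% of them. With that smallest p, adjustment over so many genes can call none unless a great many reach it together. The 0 calls of this test were therefore nearly fixed in advance. Genes read in only a few birds cannot reach p under 0.05 in it, which lowers both shares. The median standard error of a log2 difference was 0.47 in the CPM table and 1.13 in the count table.

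The levels of the pituitary hormone transcripts overlapped between 10 h and 8 h of light, and none passed the test. CGA encodes the alpha subunit shared by thyrotropin and the gonadotropins. In the CPM table its log2 difference was -0.14 ± 0.47 (SE, 95% interval -1.08 to 0.80, limma adjusted p = 0.999). The 2 tables may not measure the same tissue, so the second is no repeat of the first. The count table, used for the hormones below, gave CGA a positive difference. In the count table its level in 10La was 464 CPM in the lowest bird, 1269 at the median and 2179 in the highest, and in 8L it was 1116, 1310 and 2070. The highest bird belonged to 10La, 10La replicates 2 and 3 were the lowest, and the groups overlapped. The mean was 1190 ± 650 CPM in 10La and 1405 ± 348 in 8L (SD, n = 6 each), a log2 difference of 0.19 ± 0.35 (SE) with a 95% interval of -0.51 to 0.90 and an edgeR adjusted p of 0.999.

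FSHB, which encodes the specific subunit of follicle-stimulating hormone, was the hormone gene with the smallest p. It had 5 counts in 10La, in 3 of 6 birds, with a highest level of 35.9 CPM. All 6 birds of 8L were at 0. Those 0 of 247637 counts allow a level of up to 12.1 CPM (3 counts over the group, counting error only). The pooled 10La level of 15.7 CPM was 1.29 times that limit. It rests on 5 counts, whose own counting error was not included, so no smallest difference can be given. FSHB did not pass (edgeR adjusted p = 0.999), and its exact two-sided permutation p was 0.182. TSHB, its counterpart for thyrotropin, had 19 counts in 5 of 6 birds of 10La and 21 in 5 of 6 of 8L. Its mean level was 55.9 ± 39.7 CPM in 10La and 80.5 ± 49.2 in 8L (SD, n = 6 each; exact two-sided permutation p = 0.541). The birds without TSHB counts were 10La replicate 2 and 8L replicate 5, the libraries with the fewest genes.

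PRL, the lactotroph hormone prolactin, ranged from 1008 to 7269 CPM in 10La with a median of 5033, and from 1344 to 5576 in 8L with a median of 3382. The 3 highest birds of 10La lay above every bird of 8L, and the groups overlapped. The log2 difference was -0.58 ± 0.43 (SE), with a 95% interval of -1.44 to 0.28 and an edgeR adjusted p of 0.999. POMC, the corticotroph precursor of corticotropin and the melanocortins, spanned 2195 to 31341 CPM in 10La and 2999.5 to 39961 in 8L, with medians of 23126 and 20935. The lowest bird of each group was again the library with the fewest genes. POMC differed by a log2 of 0.057 ± 0.53 (SE; exact two-sided permutation p = 0.814), and its sign turned negative under 7 of 19 alternative settings. Of the 19 genes on the list of pituitary hormones, transcription factors and granins, 8 passed the filter on low counts, and none was called. Of these 8, 5 had a positive difference and 3 a negative one, with a median of 0.062 beside 0.099 over all 826 genes; without 10La replicate 2 and 8L replicate 5, an alternative chosen after seeing the data, they split 4 to 4.

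**Figure D1:**
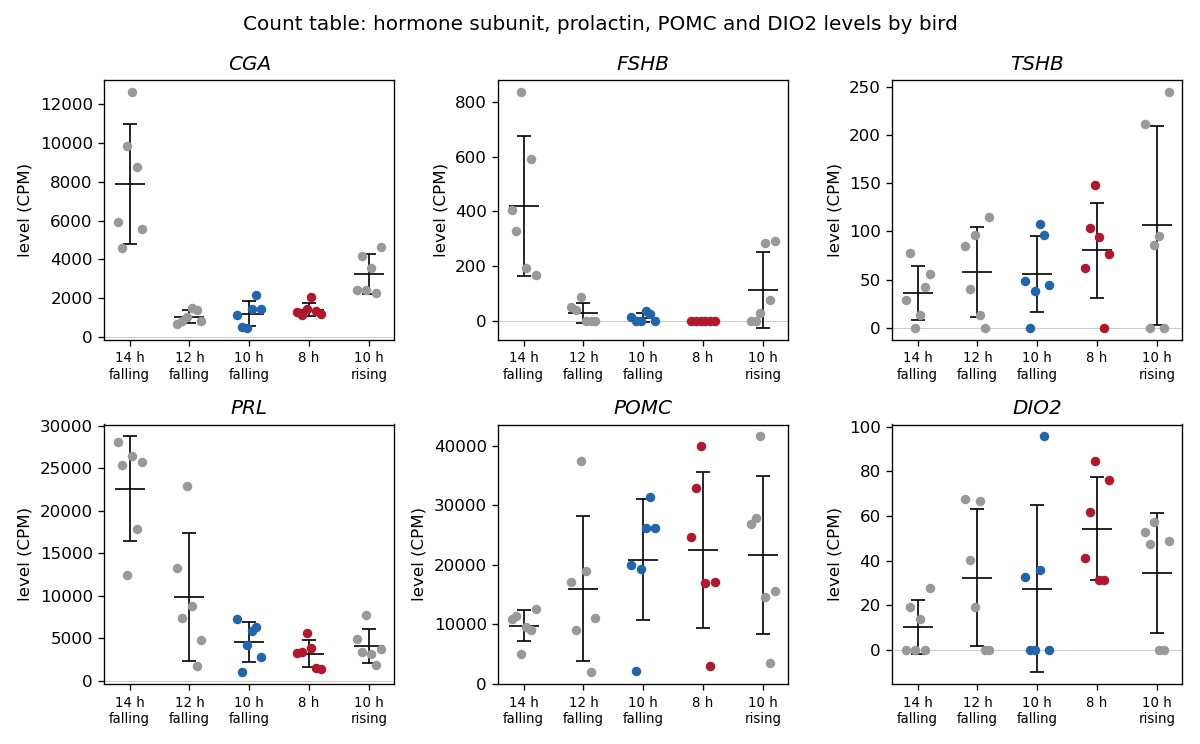
Level in CPM of 6 genes in the count table (vertical axes, linear), 1 point per bird, for 14 h, 12 h and 10 h of light on the declining arm, 8 h, and 10 h on the rising arm; horizontal bars are means and whiskers SD of 6 birds. The blue 10 h and red 8 h points of CGA lie between 464 and 2179 CPM, below every 14 h bird, and FSHB is at 0 in all 6 birds at 8 h.

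Whether the last shortening differed from the earlier one from 14 h to 12 h was tested directly, as the 8L minus 10La difference less the 12La minus 14La difference. These 4 groups share no library. CGA passed in the count table: it fell by 2.89 on the log2 scale (SE 0.37) between 14 h and 12 h, from 7890 ± 3088 to 1033 ± 338 CPM (SD, n = 6 each; edgeR adjusted p = 3.67e-07), and the difference between both steps was 3.08 ± 0.50 (SE; 95% interval 2.07 to 4.10; edgeR adjusted p = 0.000127). It was the 1 gene called of 826 (0.121%), and 23 (2.78%) had an unadjusted p under 0.05, 9 higher (1.09%) and 14 lower (1.69%). This count depended on the setting: DESeq2 called 2 (CGA and LOC107319226), limma-voom 3 (CGA, DPYSL2 and PTPRK), and edgeR with no filter on low counts, over 16442 genes, 17 higher and 69 lower. Over the 30 alternatives that gave a value for CGA, its adjusted p ran from 3.12e-06 to 0.0223. FSHB fell by 3.62 (SE 0.84; edgeR adjusted p = 0.0257) between 14 h and 12 h, but its step difference of 0.87 ± 0.99 (SE; 95% interval -1.13 to 2.86) did not pass. With no FSHB counts in 8L, the size of that step difference depends on the small count that edgeR adds. PRL was not called at either step, with -1.34 ± 0.43 (SE) for 14 h to 12 h and a step difference of 0.76 ± 0.60 (SE). For the CPM table limma called 0 of 8268 genes for this contrast (0.0%), and CGA was among those tested and not called. An unadjusted p under 0.05 was found for 324 (3.92%), 201 higher (2.43%) and 123 lower (1.49%). There limma-voom called 0, edgeR 0 and DESeq2 1, BG-like antigen 1, whose reads in 8L were in 1 bird but for 1 read.

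LOC107319226, a gene that has no symbol in the table, was named after its values were seen. It averaged 571 ± 188 CPM in 14La, 31.5 ± 29.2 in 12La, 28.4 ± 34.7 in 10La and 28.4 ± 28.8 in 8L (SD, n = 6 each). Its step difference of 4.35 ± 1.22 (SE) missed the threshold in edgeR (adjusted p = 0.336) and passed in DESeq2 (adjusted p = 0.0115). At 10 h and 8 h it had 7 counts in each group, in 4 of 6 birds of each.

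The 8L birds also turned the schedule round, and 10 h of light returned in 10Lv. Against the mean of both 10 h groups, 8L held 0 called genes in the CPM table (limma, 0.0%; 313, or 3.79%, at an unadjusted p under 0.05, 168 higher, 2.03%, and 145 lower, 1.75%) and 0 in the count table (edgeR, 0.0%; 42, or 5.08%, at an unadjusted p under 0.05, 28 higher, 3.39%, and 14 lower, 1.69%). For the CPM table limma-voom called 0, edgeR 0 and DESeq2 1, the same BG-like antigen 1. For the count table DESeq2 and limma-voom called 0, whereas edgeR with no filter on low counts, over 16442 genes, called 43 higher and 5 lower. FSHB had the smallest adjusted p, 0.338 in edgeR, for a log2 difference of -4.04 ± 1.08 (SE). The neighbouring step from 8L to 10Lv, which shares the 8L birds, had FSHB called higher: 10Lv held 14 counts in 4 of 6 birds, and the log2 difference was 5.32 ± 1.14 (SE; edgeR adjusted p = 0.0231). FSHB was at 285 and 294 CPM in 10Lv replicates 4 and 6, at 28.6 and 75.7 in replicates 3 and 5. With 0 counts in 8L, the size of both FSHB differences depends on the small count that edgeR adds. Birds were not left out in turn for the step to 10Lv. For CGA that step gave 1.11 ± 0.35 (SE) and missed the threshold (edgeR adjusted p = 0.402). CGA spanned 1116 to 2070 CPM in 8L and 2271 to 4651 in 10Lv. How many of all genes separate in this way was not counted for that step, so the separation of CGA cannot be weighed.

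Deiodinase transcripts were sparse in both tables. DIO2, which activates thyroid hormone, had 15 reads in 4 of 6 birds of 10La and 26 reads in 6 of 6 of 8L in the CPM table. Its level ran from 0 to 7.62 CPM in 10La with a median of 2.59, and from 1.74 to 6.98 in 8L with a median of 4.99. The highest bird was in 10La and the groups overlapped. The log2 difference on the log2(CPM + 1) scale, which understates the change of low genes, was 0.85 ± 0.65 (SE; 95% interval -0.44 to 2.15; limma adjusted p = 0.999). The count table held for DIO2 10 counts in 3 of 6 birds of 10La and 14 in 6 of 6 of 8L, at 27.4 ± 37.5 and 54.4 ± 23.1 CPM (SD, n = 6 each; exact two-sided permutation p = 0.0931).

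DIO3, which inactivates thyroid hormone, had 1 read in 1 bird of 10La and 8 reads in 4 of 6 birds of 8L in the CPM table. The 8L birds lay between 0 and 2.62 CPM with a median of 1.44, and replicates 3 and 5 were at 0. The exact two-sided permutation test did not pass (p = 0.106). DIO3 also had 1 read in 16La and 1 in 10Lv, and it was at 0 in the other 5 groups. Beside it, THRB, a thyroid hormone receptor, spanned 77.2 to 149 CPM in 10La and 5.31 to 129 in 8L, where replicate 3 held 2 reads. THRB differed by -0.89 ± 0.52 (SE, limma adjusted p = 0.999), and by -0.24 without 8L replicate 3. In the count table, which may not measure the same tissue, the THRB difference was 1.23 ± 1.19 (SE, edgeR adjusted p = 0.999). NCOR1, a corepressor of unliganded nuclear receptors, differed by 0.35 ± 0.26 (SE) in the CPM table. Of the 16 genes on the thyroid hormone list 7 passed the filter on low CPM, none was called, and 5 of the 7 differences were negative, with a median of -0.18 beside 0.028 over all 8268 genes; without replicate 3 of each group 4 of 7 were. TSHR, the thyrotropin receptor, had 3 reads in 10La and 7 in 8L.

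Hypothalamic neuropeptides of reproduction were measured at overlapping levels. NPVF encodes gonadotropin-inhibitory hormone. It ranged from 20.7 to 137 CPM in 10La with a median of 70.4, and from 50.6 to 122 in 8L with a median of 71.7, and the lowest and the highest bird were both in 10La. Its log2 difference was 0.31 ± 0.39 (SE; 95% interval -0.49 to 1.10). VIP, which in birds releases prolactin, spanned 28.9 to 87.2 CPM in 10La and 25.2 to 71.5 in 8L, a difference of -0.16 ± 0.28 (SE). Of GAL, the peptide galanin, 5 of 6 birds of 10La, between 140 and 166 CPM, were above the highest 8L bird at 136, and the difference was -0.44 ± 0.24 (SE; 95% interval -0.93 to 0.040; limma adjusted p = 0.999). NTS, neurotensin, ran from 10.1 to 29.5 CPM in 10La and from 12.4 to 28.7 in 8L, a difference of 0.53 ± 0.29 (SE). GNRH1, the gonadotropin-releasing hormone gene, had 2 reads in each group. Of 18 peptides and receptors on that list 13 passed the filter, 0 were called, and 9 of the 13 were negative, but without replicate 3 of each group, an alternative chosen after seeing the data, 9 of the 13 were positive.

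The energy balance genes gave no call either. NPY, the arcuate peptide that drives feeding, had 162 to 351 CPM in 10La with a median of 198, and 132 to 244 in 8L with a median of 149. The 4 lowest birds of 8L lay below all of 10La, and the groups overlapped through 8L replicates 1 and 2. Its mean was 219 ± 67.2 CPM in 10La and 167 ± 43.1 in 8L (SD, n = 6 each), a log2 difference of -0.34 ± 0.22 (SE; 95% interval -0.78 to 0.11; limma adjusted p = 0.999). AGRP, its partner in the same neurons, had a median of 8.88 CPM in 10La and 7.64 in 8L, with a difference of -0.073 ± 0.77 (SE). POMC in this table, the precursor made by the opposing arcuate neurons, ran from 28.3 to 57.0 CPM in 10La and from 5.31 to 74.6 in 8L. The lowest POMC level was that of 8L replicate 3, with 2 reads. Of the 11 energy balance genes tested, PMCH, melanin-concentrating hormone, was the 1 gene with an unadjusted p under 0.05. It spanned 6.99 to 66.4 CPM in 10La and 0 to 26.2 in 8L, and its difference of -1.25 ± 0.57 (SE) did not pass (limma adjusted p = 0.999). Without 8L replicate 3 the PMCH difference was -0.66. Over that list 6 of 11 were negative, and without replicate 3 of each group 3 of 11 were.

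**Figure D2:**
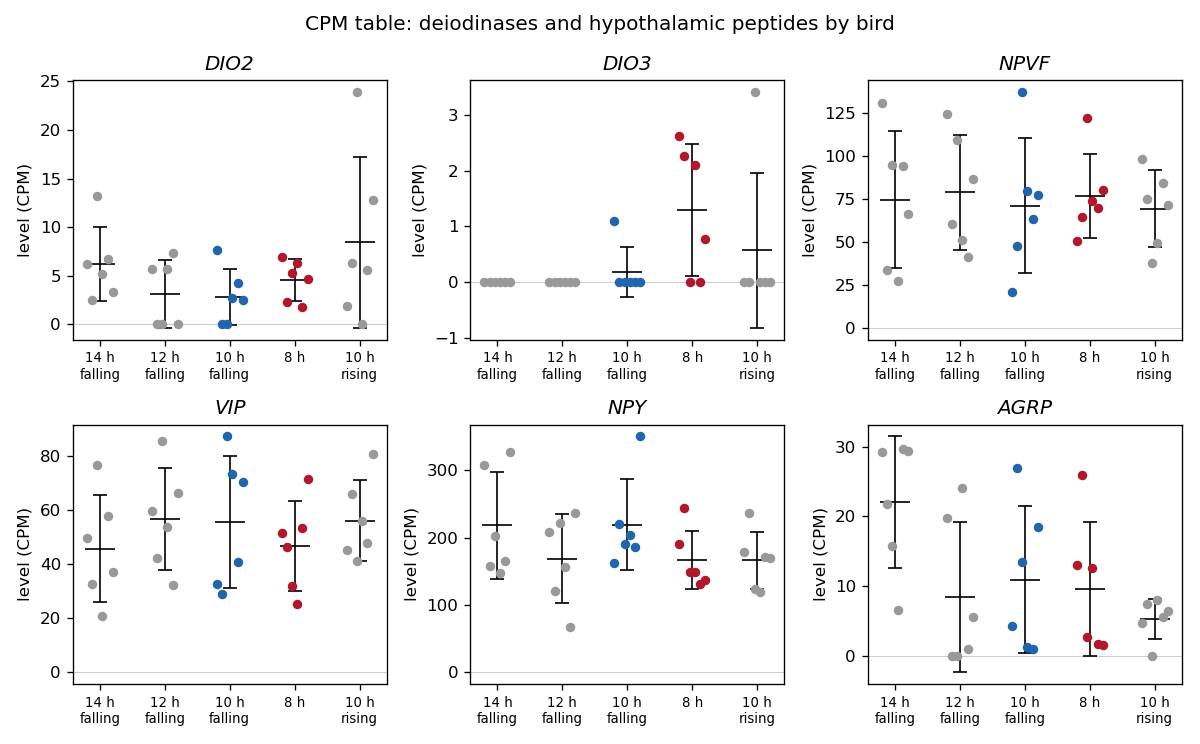
Level in CPM of 2 deiodinase and 4 neuropeptide genes in the CPM table (vertical axes, linear), 1 point per bird, with the groups, means and SD of 6 birds drawn as in the plot of hormone levels. NPY at 8 h lies between 132 and 244 CPM against 162 to 351 at 10 h on the declining arm, and DIO3 is above 0 in 4 birds at 8 h and in 1 bird at each 10 h step.

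The genes with the smallest p in the CPM table were higher in 8L, and for several it was the 10La birds that lay low. They were picked by the 8L minus 10La difference, which favours genes with an extreme 10La group. The rule named the 8 genes of smallest p in each direction, none of which passed. KIFC2, a kinesin motor, was at 0 in 4 birds of 10La and reached 7.50 CPM in replicate 5, while 8L ran from 0 to 31.4 with a median of 14.8. The other 5 birds of 8L lay above all of 10La, and 8L replicate 3, the shallowest, was at 0. The difference was 2.76 ± 0.68 (SE; 95% interval 1.40 to 4.13; limma adjusted p = 0.764), and without 8L replicate 3 it was 3.45 with an adjusted p of 0.0161. DESeq2 on the recovered reads called it as well (adjusted p = 0.0400). In the other groups KIFC2 averaged 20.2 ± 11.2 CPM in 12La and 32.9 ± 13.3 in 10Lv (SD, n = 6 each), and the step from 12La to 10La, which shares the 10La birds, was -3.55 ± 0.68 (SE; limma adjusted p = 0.0303).

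MAP3K2, a kinase of the MAP kinase cascades, had 0 reads in all 6 birds of 10La and 53 reads in 8L, 1 to 16 per bird. Its groups did not overlap, and the pooled 8L level was 14.3 times the limit of 3 reads over 10La. MAP3K2 was also at 0 in 14La replicates 1, 2 and 6, in 12La replicate 3 and in 10Lv replicates 3 and 4. Another 2 genes, named after their values were seen, had every 8L bird above every 10La bird: TBC1D32, at 0 to 8.61 CPM in 10La and 9.60 to 35.8 in 8L, and SLC41A3, at 0 to 22.1 and 25.3 to 31.9. These 3 are 0.0363% of the 8268 genes. CD200, a surface glycoprotein that restrains myeloid cells, was at 0 in 3 birds of 10La and at 17.1 CPM in the highest, and spanned 11.6 to 114 in 8L with a median of 44.1. Its means were 3.23 ± 6.84 and 54.2 ± 38.7 CPM (SD, n = 6 each), a difference of 4.42 ± 1.19 (SE; limma adjusted p = 0.764). TUB, whose loss causes obesity in mice, ran from 16.8 to 118 CPM in 10La and from 67.1 to 130 in 8L, a difference of 1.19 ± 0.31 (SE). For TUB the 12La and 10Lv means were 99.3 ± 39.3 and 107 ± 24.4 CPM, and those of CD200 were 19.5 ± 20.4 and 35.8 ± 25.1 (SD, n = 6 each). CD200 was also at 0 in 14La replicate 3, in 12La replicates 3 and 4 and in 10Lv replicate 3.

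The other 4 of these genes were KIAA0196, a subunit of the WASH complex on endosomes, LAS1L, needed for maturation of the large ribosomal subunit, PSIP1, a chromatin-bound coactivator, and HIVEP3, a zinc finger factor. Their differences lay between 1.32 for LAS1L and 2.54 for KIAA0196, with 16 reads of LAS1L and 4 of KIAA0196 in 10La against 42 each in 8L. HIVEP3 spanned 1.35 to 80.3 CPM in 10La and 56.8 to 104 in 8L. All 4 overlapped between the groups.

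Among genes lower in 8L, MT4, a metal-binding metallothionein, was measured in every bird. It ranged from 185 to 283 CPM in 10La with a median of 233, and from 128 to 173 in 8L with a median of 151. Other steps overlapped 8L, with MT4 at 137 to 205 CPM in 10Lv, 147 to 255 in 12La and 106 to 255 in 14La. Every 8L bird lay below every 10La bird. The difference was -0.57 ± 0.21 (SE; 95% interval -0.98 to -0.16) and did not pass (limma adjusted p = 0.999). Groups separated in this direction for 7 of 8268 genes (0.0847%). Among the others of these 7, named after their values were seen, were ADI1, GSPT2 and TLE4. A full separation of 6 against 6 birds, in either direction, has an exact two-sided permutation p of 0.00216. The 3 higher and 7 lower genes together were a smaller share of the 8268. Separation by itself therefore singles out neither MT4 nor MAP3K2, TBC1D32 and SLC41A3. MRPL48, a protein of the mitochondrial ribosome, lay at 42.8 to 87.2 CPM in 10La and 33.2 to 52.9 in 8L, and 5 of 6 birds of 10La were above all of 8L. Its difference was -0.58 ± 0.18 (SE), and 10Lv averaged 64.6 ± 14.5 CPM (SD, n = 6). GLOD4, of the glyoxalase family, had a median of 36.0 CPM in 10La and 17.9 in 8L. TCF12, a basic helix-loop-helix factor, spanned 447 to 1474 CPM in 10La and 186 to 627 in 8L. STK24, a Ste20-type kinase, CASP1, the inflammasome protease, ICA1, a protein of secretory vesicles, and LZIC completed the rule's list, with differences from -1.90 for CASP1 to -1.17 for ICA1. STK24, CASP1 and LZIC had 0 reads in 8L replicate 3, the shallowest of its group, and without that bird STK24 differed by -0.71 and LZIC by -0.46.

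**Figure D3:**
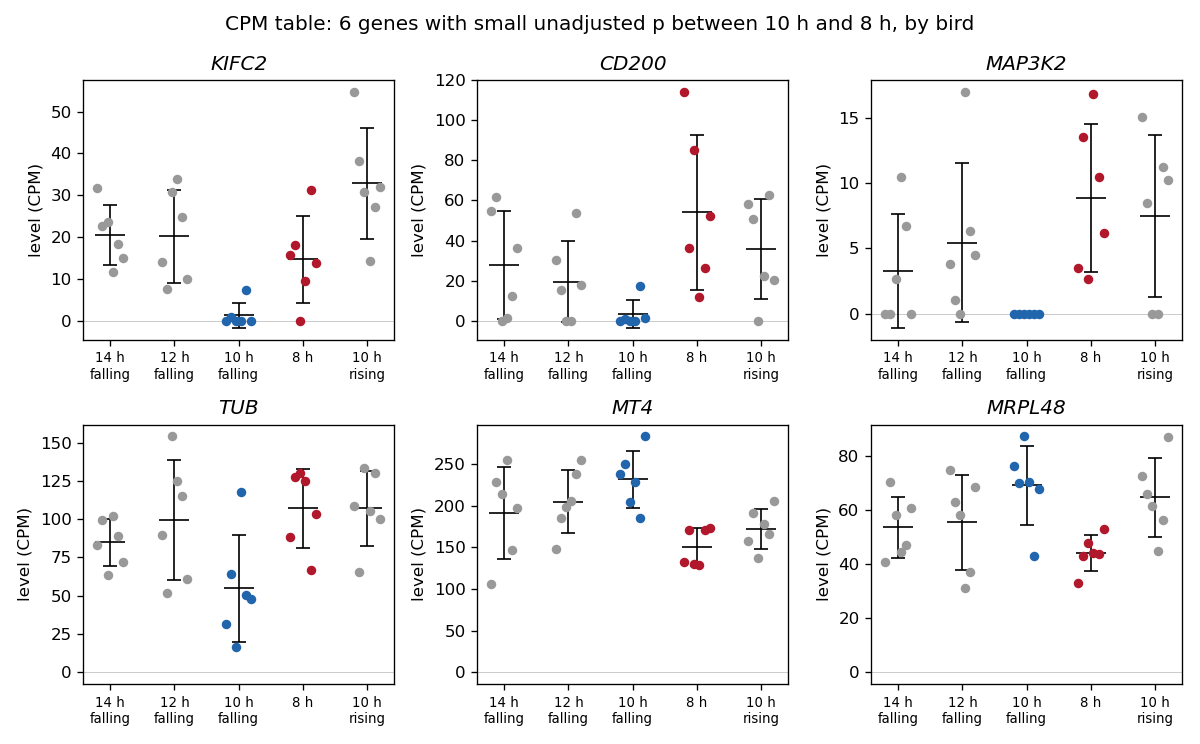
Level in CPM of 6 genes of small unadjusted p in the CPM table (vertical axes, linear), 1 point per bird, with the groups, means and SD of 6 birds drawn as in the plot of hormone levels. MAP3K2 is at 0 in all 6 birds at 10 h on the declining arm, and MT4 at 8 h spans 128 to 173 CPM against 185 to 283.

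Several of the genes named by the rule in the count table rested on few birds. MTSS1, a membrane-bending actin regulator, had 135 counts in 4 of 6 birds of 10La and 0 in 8L. The pooled 10La level of MTSS1 was 34.9 times the limit of 3 counts over 8L. The 10La birds at 0 were replicates 2 and 4, and the groups overlapped at 0. Its edgeR adjusted p was 0.999, and with no filter on low counts, where 16442 genes were tested, it was 0.00615. KCNMA1, the BK potassium channel, had 180 of its 224 counts of 10La in replicate 1, and 2 counts in 8L (adjusted p = 0.0270 with no filter in edgeR). CTNND2, the neuronal delta-catenin, had 52 counts in 4 birds of 10La and 0 in 8L, and DOCK10 23 in 3 birds and 0. DPYSL2, which shapes axons, had 78 counts in 5 birds of 10La and 7 in 4 birds of 8L. SLC7A1, a cationic amino acid transporter, had 84 and 6, and FAM214A 26 and 1. In the other direction, WDFY3, an autophagy scaffold, was at 0 in 4 birds of 10La and between 62.6 and 434 CPM in all 6 of 8L. PTPRD, a receptor tyrosine phosphatase, had 306 counts in 4 birds of 8L and 48 in 2 of 10La. BRSK2, a kinase of neuronal polarity, had 50 of its 58 counts of 8L in replicate 6. MCF2L, IKZF2, PHF3, SH3GLB1 and ACAP2 had counts in 3 to 5 birds of 8L and in 1 to 4 of 10La. None of the 16 passed, and no gene tested had groups that did not overlap (0.0% in each direction).

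Gene lists for cell types and functions gave no called member. Of 12 tested oligodendrocyte genes 10 were negative, with a median of -0.25, whereas over all genes 52.7% were positive and the median was 0.028. TSPAN2, a tetraspanin of oligodendrocytes, ran from 145 to 240 CPM in 10La with a median of 175, and from 79.9 to 196 in 8L with a median of 139. The 3 lowest birds of 8L lay below all of 10La, and the groups overlapped. Its difference was -0.46 ± 0.27 (SE; limma adjusted p = 0.999). All 13 oligodendrocyte markers in the table were detected, and their summed level was 5994 to 10470 CPM in 10La and 4854 to 8967 in 8L. The part that the number of these cells had in single genes was not tested. The split of 10 against 2 was the same without TMM scaling and without replicate 3 of each group.

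Markers of other cells varied in both directions. Of 11 neuronal genes 6 were positive with TMM scaling and 5 without it. Of 11 astrocyte and tanycyte genes 5 were positive and 6 negative, with a median of -0.094. GJA1, the astrocyte gap junction protein, differed by 0.39 ± 0.22 (SE) and SLC1A3, a glutamate transporter, by 0.24 ± 0.16 (SE). In the other direction AQP4 differed by -0.30 ± 0.28 (SE) and FABP7 by -0.17 ± 0.22 (SE). RAX, a marker of tanycytes, was at 0. Among microglial genes 4 of 5 were positive with a median of 0.73 (5 of 5 and 0.48 without replicate 3 of each group), led by SPI1, a myeloid factor, at 1.00 ± 0.74 (SE), and C1QC, a complement subunit, at 1.00 ± 0.78 (SE). Each was at 0 in 1 bird of 10La, and without that bird SPI1 differed by 0.46 (replicate 3 left out) and C1QC by 0.46 (replicate 5 left out). The summed level of the 11 microglial markers was 24.4 to 87.2 CPM in 10La and 45.4 to 68.8 in 8L.

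Synaptic genes were positive somewhat more often than not, and none passed. Of 25 glutamate and GABA receptor genes 17 were positive (median 0.12), and of 24 genes of synaptic vesicle release 16 were (median 0.12), where 52.7% of all genes were positive with a median of 0.028. Without replicate 3 of each group 17 of 25 (median 0.090) and 14 of 24 (median 0.018) were positive. GRM3, a metabotropic glutamate receptor, had 7.38 to 40.2 CPM in 10La and 24.2 to 66.4 in 8L, a difference of 0.77 ± 0.32 (SE; limma adjusted p = 0.999), and was the 1 member of either list with an unadjusted p under 0.05. Without 10La replicate 6 the GRM3 difference was 0.45. Immediate early and stress genes were positive for 8 of 9 with TMM scaling and 7 of 9 without it. FOS, an activity marker, had a median of 24.5 CPM in 10La and 38.1 in 8L, with overlapping groups (0.47 ± 0.29, SE), and HSP90AA1, a chaperone, differed by 0.12 ± 0.12 (SE).

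Ribosomal protein genes had small differences, mostly negative, none of which passed. Of the 70 tested in the CPM table, 58 were negative (65 without TMM scaling and 66 without replicate 3 of each group), with a median of -0.083 and a range of -0.31 to 0.20. RPL4, with the smallest p, spanned 90.4 to 141 CPM in 10La and 78.5 to 119 in 8L, and its difference was -0.31 ± 0.16 (SE; 95% interval -0.64 to 0.0066). The summed level of the 71 genes was 30890 to 42141 CPM in 10La and 26547 to 37355 in 8L. Of 57 genes of oxidative phosphorylation 38 were negative, with a median of -0.087; NDUFA13, a subunit of complex I, had 5 of 6 birds of 10La above all of 8L and a difference of -0.26 ± 0.16 (SE). Ribosomal genes of the count table split 38 positive to 34 negative, and 28 to 44 without 10La replicate 2 and 8L replicate 5, an alternative chosen after seeing the data. Reads of ribosomal protein genes can be split with near-identical copies.

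**Figure D4:**
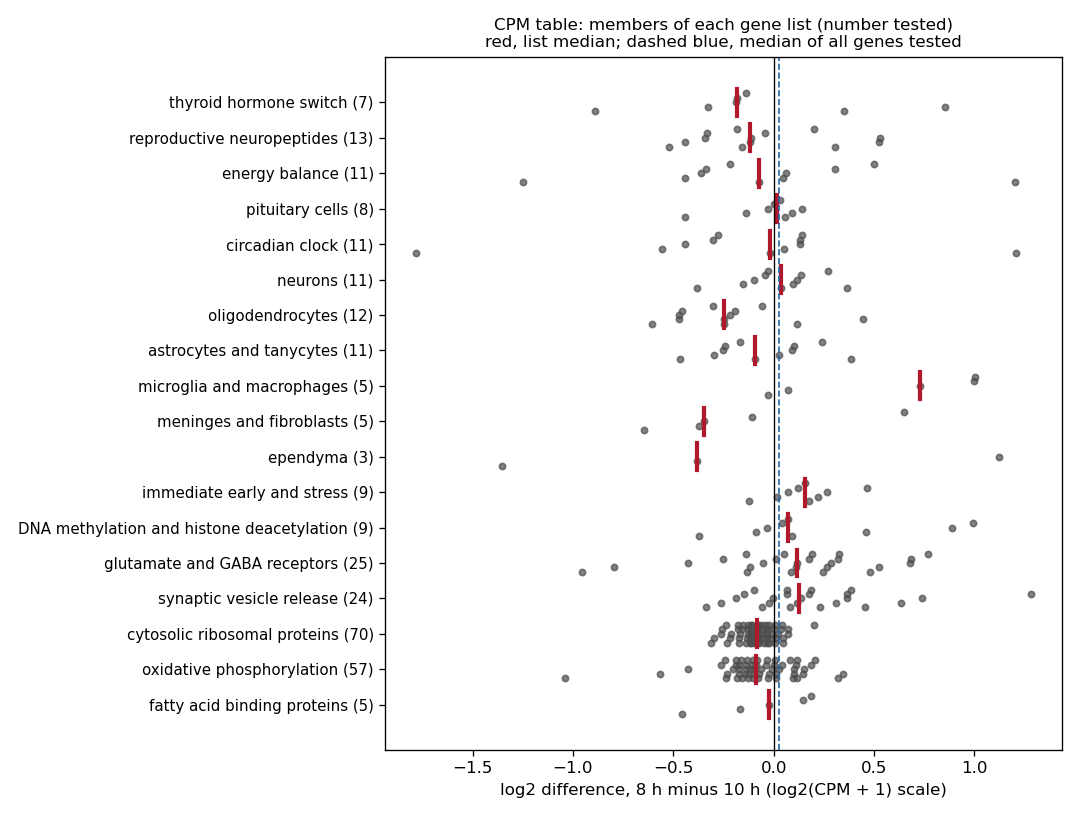
Log2 difference, 8 h minus 10 h on the declining arm (horizontal axis, log2(CPM + 1) scale), of each tested member of 18 gene lists in the CPM table, with the number tested beside each list; red bars are list medians, and the dashed line is the median of all 8268 genes, 0.028. The oligodendrocyte median lies at -0.25, the microglial one at 0.73, and the ribosomal members between -0.31 and 0.20.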

How the data were processed

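Expression was measured in 54 birds by direct cDNA sequencing on Oxford Nanopore flow cells, per the labels' protocols. Named in the submitters' processing notes are Salmon 0.14.2, minimap2 2.17 and edgeR 3.24.3. Which step each tool served is not given in the sources used here, nor is a genome build, and no coordinates are printed. The authors deposited CPM for 19930 names, of which 14 turned into dates were left out. The most common positive value of a column was taken as 1 read, and 99.7% to 100.0% of values per library were then whole within 0.1 read. The authors also deposited estimated counts (expected counts) for 40282 transcripts, which were summed over 16448 genes and rounded. Of the CPM names 58.3% are in the RefSeq table of assembly Coturnix japonica 2.1.

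Groups came from the treatment label, and replicate numbers only name birds. Replicates 3 and 6 of 16Lv differed by less than the sampling noise in the CPM table and were counted as 1 sample. CPM were TMM-scaled and tested with limma 3.58.1 (limma-trend) on log2(CPM + 1) for genes with at least 10 CPM in at least 6 libraries, since the CPM unit does not allow the count test as the main one. Counts were tested with edgeR 4.0.16 (quasi-likelihood, TMM, filterByExpr with a minimum count of 10). Each table had 1 fit of 9 group means over all groups, with Benjamini-Hochberg adjustment over all genes at 0.05. The code was tested on simulated data. Levels are CPM of the library total, as mean ± SD, and log2 differences are 8L minus 10La unless another step is named. For limma the SE comes from the fit. For edgeR it is the absolute log2 difference over the square root of the F value, so an interval need not match its p. Every gene with a read in the 12 libraries was also tested with an exact two-sided permutation test of mean log2(CPM + 1) over 924 splits. Limits for a count of 0 are 3 counts and, like depth, cover counting error only.

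The rule named the 8 genes of smallest p per direction and table (called genes first, features without a symbol passed over), 20 priority genes, and members of 19 lists by smallest p. Some genes that met the rule or a count are not reported here. The members and lists were chosen with earlier results of these data known. Alternatives were other pseudocounts, filters, scalings, tools (limma-voom, DESeq2 1.42.0, edgeR on recovered reads), groups in the fit, and each bird left out in turn.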

Additional observations from a re-analysis of the deposited data

Results flagged for a closer look

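Single birds stood apart in 46 of 284 groups of 6 screened, over 148 gene and table pairs. For normally distributed values chance flags about 1 in 20. Levels were screened as CPM without a log scale, so that rate need not hold here. In 14 of the 46 the other 5 birds were at 0, so that 1 bird with any read stands apart. For the CPM table replicate 6 was the high bird of 10La for NPY (351 CPM, the next at 221), PMCH (66.4), NTS (29.5), PRL (4.92) and GH (1.23). Replicate 5 of 10La was high for CD200 (17.1 CPM) and KIFC2 (7.50), replicate 3 for PER3 (90.5) and DCN (20.1), replicate 2 for GHRH (21.0), and replicate 1 for KIAA0196 (3.27) and DIO3 (1.09). The lowest bird of 10La stood apart for GAL, at 94.8 CPM in replicate 1. In 8L the high birds were replicate 2 for HDAC9 (185 CPM), RPL4 (119), CARTPT (31.7) and FABP6 (31.7), replicate 4 for PTPRC (13.7) and TSHB (1.05), replicate 5 for NDUFS6 (126), and replicate 6 for BG-like antigen 1 (33.4) and PRL (1.55). Replicate 3 of 8L was low for CRYM (5.31 CPM).

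For the count table replicate 4 of 8L was high for CGA (2070 CPM, the next at 1457), TET1 (439) and KCNMA1 (62.7). Replicate 2 of 8L was high for HDAC4 (1612 CPM), TSHR (41.3), DIO3 (20.7) and PENK (20.7), replicate 3 for AGRP (21.1) and FAM214A (21.1), and replicate 6 for BRSK2 (1268), PER2 (1268) and PER3 (558). In 10La the high bird was replicate 6 for DPYSL2 (761 CPM), DOCK10 (380) and BRSK2 (44.8), replicate 5 for THRB (383), SH3GLB1 (120) and DIO2 (95.8), replicate 4 for IKZF2 (53.8) and PDYN (17.9), and replicate 1 for PTPRD (365), WDFY3 (122) and MCF2L (8.11). The difference of CGA between the last step and the fall from 14 h to 12 h was tested and was 3.08 on the log2 scale (edgeR adjusted p = 0.000127).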

How the results depend on the processing

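Without a filter on low values the CPM table gave 1 gene higher and 1 lower in 8L than in 10La, and 2 higher than in both 10 h groups. DESeq2 on the recovered reads gave 2 higher, 1 for the step difference and 1 against both 10 h groups. Leaving out each bird gave 0 to 1 higher, the 1 being KIFC2 without 8L replicate 3. In the count table no filter gave 2 lower in 8L than in 10La, 17 higher and 69 lower for the step difference, and 43 higher and 5 lower against both 10 h groups. For the step difference DESeq2 gave 2 higher and limma-voom 2 lower (DPYSL2 and PTPRK). The cause was not tested, except that no filter tests 19916 and 16442 genes. The CGA step difference was 2.89 to 3.31 over its alternatives, each under the threshold.

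Of the 134 differences of single genes recomputed, 110 kept their sign and 24 turned under at least 1 setting. None of the 24 was called under any setting. In the count table the values with DESeq2 size factors, with DESeq2, with limma-voom and with no filter were -0.028, -0.028, -0.013 and -0.013 for POMC, -0.12, -0.13, -0.81 and -0.15 for HDAC4, and -0.057, -0.044, -0.15 and -0.18 for PCLO. CPE was 0.097 and MAP2 -0.014 with limma-voom. With only the groups compared HDAC4 was -0.010 and PCLO -0.00042, and without 10La replicate 2 and 8L replicate 5 they were -0.033 and -0.0076. In the CPM table limma-voom gave 0.17 for GHRH, 0.0021 for SCG2 and 0.017 for TET1, while edgeR gave 0.084 for GHRH and -0.18 for CD74, and DESeq2 0.077 and -0.19. Without replicate 3 of each group POMC was 0.079, PDYN 0.21, VIP 0.060, PENK 0.0036, AGRP 0.28, GHRH 0.36, CRYM 0.14, SCG2 0.084, TET1 0.53, FABP3 -0.033 and FABP6 0.20.

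Over single birds left out, the count table ranged from -0.22 to 0.24 for POMC, -0.34 to 0.14 for CPE, -0.16 to 1.29 for ELAVL4, -1.28 to 0.69 for HDAC4, -0.20 to 0.92 for MAP2, -0.55 to 0.55 for PCLO, -2.08 to 0.25 for PER2, -0.12 to 1.19 for PER3 and -2.66 to 0.037 for TET1. The CPM table ranged from -0.45 to 0.31 for AGRP, -0.45 to 0.34 for CD74, -0.34 to 0.053 for CGA, -0.037 to 0.23 for CHGA, -0.44 to 0.040 for CRYM, -1.07 to 0.077 for FABP6, -0.26 to 0.52 for GHRH, -0.55 to 0.083 for PDYN, -0.67 to 0.0033 for POMC, -0.11 to 0.034 for SCG2, -1.06 to 0.21 for TET1 and -0.72 to 0.097 for TTR. Leaving out replicate 3 of each group, 224 of 8185 genes of the CPM table had an unadjusted p under 0.05, and 33 of 1009 of the count table did without the libraries of fewest genes. Of the 110 that kept their sign, 43 in the CPM table and 16 in the count table moved by over 1.5 times when 1 bird was left out. No paired analysis was run because the labels pair no birds between groups. Replicate numbers here follow the order of the samples and only name birds. The shallowest CPM library recurred at the same place in the bird order in most groups. Whether this reflects a technical position shared between groups was not tested, and no term for it was fitted. Depth limits genes of few reads, such as the deiodinases, FSHB and TSHB, whose group totals were 0 to 26 reads.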

Other observations

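Clock genes showed no common direction at the turn to the shortest days: 5 of the 11 tested by CPM were positive, with a median of -0.020. NR1D2, a repressor of the clock's feedback loop, had 0 to 23.6 CPM in 10La and 10.9 to 34.5 in 8L, and its difference of 1.21 ± 0.57 (SE) did not pass (limma adjusted p = 0.999). Without 10La replicate 4 the NR1D2 difference was 0.64. PER3, a period gene, had a difference of -1.78 ± 1.23 (SE), with 3 birds of 8L at 0. The hour of sampling is not given in the labels used here. Of 9 genes of DNA methylation and histone deacetylation 6 were positive (median 0.070); HDAC2, a histone deacetylase, was at 0 in 1 bird of 10La and differed by 0.99 ± 0.50 (SE), or 0.27 without that bird, replicate 1. TET2, a methylcytosine dioxygenase, differed by 0.89 ± 0.66 (SE), or 0.31 without 10La replicate 3. Of 5 fatty acid binding protein genes 2 were positive.

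Markers of vessels, meninges and ventricle lining had no called member. PECAM1, the 1 endothelial gene tested, had reads in 4 birds of 10La and 2 of 8L. Of 5 meningeal genes 4 were negative, among them APOD at -0.64 ± 0.39 (SE) and PTGDS at -0.37 ± 0.25 (SE), and the 7 meningeal markers in the table summed to a median of 201 CPM in 10La and 140 in 8L. Of 3 ependymal genes 2 were negative. Genes of oxidative phosphorylation tested by counts split 5 positive to 6 negative, and 3 stress genes 2 to 1.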
